A study of Mus musculus with 16 samples.

Results

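TNF, a cytokine made largely by macrophages, was compared with vehicle in mouse bone marrow-derived monocytes kept in M-CSF (macrophage colony-stimulating factor), which carries monocytes towards the macrophage state. The comparison rests on 8 of the 16 libraries of the series: 4 from cells given TNF and 4 from cells given vehicle, with cells of the same 4 wild-type animals in both groups. Libraries were assigned by the treatment and the animal number in the labels. The vehicle group received M-CSF alone, the TNF group M-CSF with TNF, and the labels place RNA collection at 24 h. The other 8 libraries came from the same animals and held the compound PFM037, alone or with TNF. They were used as a further comparison of TNF with no TNF. Neither the doses nor the strain, sex and age of the mice are given in the sources used here. M-CSF was present in all 4 groups, so the data describe TNF on top of M-CSF.

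TNF binds a pair of receptors. The one encoded by Tnfrsf1a recruits TRADD, RIPK1, TRAF2 and the cellular IAP ubiquitin ligases, and this complex activates IKK, which releases NF-kB dimers into the nucleus by having the IkB proteins degraded. NF-kB then raises the genes of its own inhibitors, IkB alpha and A20 among them, which limits the response. In macrophages TNF is known for inducing chemokines, adhesion molecules and prostaglandin synthesis.

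Poly(A)-selected RNA was sequenced as single reads and the authors' read counts per gene were tested. Library totals ran from 14114703 to 20125134 counts for vehicle and from 9403232 to 21017905 for TNF, and the shallowest libraries were those of animals 3 and 4 given TNF. Levels are CPM, counts scaled to equal library totals with TMM factors, so they compare libraries and not genes of different length. Of 50508 genes listed, 13856 had enough counts to be tested. A gene is said to have risen or fallen where its change, TNF against vehicle within animals, had an adjusted p under 0.05 over all genes tested. Over the genes tested, how far a vehicle and a TNF library of the same animal lay from the averages of their groups correlated at 0.608 to 0.667. The correlations were 0.388 to 0.519 between animals 1 and 2 or between animals 3 and 4, and -0.613 to -0.487 across these pairs of animals. The labels give no batch, and every animal is in every group. Values are therefore given per animal, always in the order 1 to 4.

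Of the macrophage and monocyte markers Lyz2, Csf1r, Adgre1, Cd68 and Itgam were at 514 CPM or more in every library, while Ace and Cd300e stayed at 3.40 CPM or less. The summed level of 20 such genes, of which Lyz2 made up the larger part, was 30212 to 39984 CPM with vehicle and 38566 to 46940 with TNF, and 7 of the 20 rose and 5 fell. Neutrophil markers were also present, with a sum over 19 genes of 12691 to 26980 with vehicle and 10876 to 17759 with TNF. Of the 19, 5 fell and 1 rose with a median log2 change of -0.25, and the per-animal medians were -0.26, -0.60, -0.09 and -0.23. Their part in the other results was not tested. Sums were 96.6 to 149 CPM for lymphocyte markers over both groups, 315 to 563 for dendritic cell markers and 197 to 588 for mast cell, basophil and eosinophil markers, with ranges that overlapped between vehicle and TNF. Those of erythroid and megakaryocyte markers, 1066 to 3008, overlapped too. Of 20 tested mast cell, basophil and eosinophil markers 2 rose, Ear1 and Kit, which lost the call in 7 and 11 of the 12 fits without an animal or a library (adjusted p up to 0.392 and 0.132), and 0 rose with library size scaling. Of 16 lymphocyte markers 1 fell, Nkg7, which lost the call without animal 1 or its TNF library (adjusted p up to 0.0619). Of 15 erythroid and megakaryocyte markers 1 fell (6.67%), Pf4, and of 5 stromal and endothelial markers tested 2 rose, Pdgfrb and Acta2. These 3 missed the threshold without the animal as a term in the model (adjusted p = 0.248, 0.0584 and 0.195). Of all genes tested 9.59% rose and 9.84% fell. The mast cell protease gene Mcpt4 and, among stromal markers, Col3a1, Dcn and Lum had no count in any of the 8 libraries. In RNA from a whole culture, fewer cells of a type and less RNA per cell cannot be told apart.

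TNF changed 2692 of the 13856 genes tested, 19.4%. Of these 1329 rose (9.59%) and 1363 fell (9.84%), and 304 rose (2.19%) and 89 fell (0.642%) by at least 2-fold. The largest changes went up: 59 genes rose and 4 fell by at least 4-fold, whereas among changes under 1.5-fold 717 rose and 1051 fell. A test against a change of 1.5-fold called 205 genes higher (1.48%) and 51 lower (0.368%). The same sign was seen in all 4 animals for 1259 of the risen and 1332 of the fallen genes. These genes were called on the changes within the same animals, so their signs are no separate evidence. In 514 risen genes (3.71% of all tested) every TNF library lay above every vehicle library, and in 417 fallen genes (3.01%) every one lay below. How many of all genes tested, called or not, had the same sign throughout or groups without overlap was not counted.

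Among the called genes the median change was larger in animals 1 and 2 in both directions. The median log2 change of the risen genes was 0.60, 0.68, 0.40 and 0.37 in animals 1 to 4, and that of the fallen genes was -0.41, -0.48, -0.31 and -0.33. Over all genes tested, called or not, 599, 736, 321 and 388 were at least 2-fold higher within the animal, and 246, 414, 262 and 391 at least 2-fold lower. The falls thus did not show that division. The part of depth, lowest in the TNF libraries of animals 3 and 4, was not tested. Without the animal term the model called 249 genes higher (1.80%) and 122 lower (0.880%), and all 371 were also called with it. With library size as the only scaling, and the animal term kept, 1064 genes were higher and 2148 lower. The balance between directions thus depends on the scaling, which shifted the median of all genes by -0.06 on the log2 scale. The count of calls fell to 1581 without animal 1, 1685 without animal 2 and 1703 without animal 4, and to 1608 without the vehicle library of animal 2 and 1649 without the TNF library of animal 1.

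**Figure D1:**
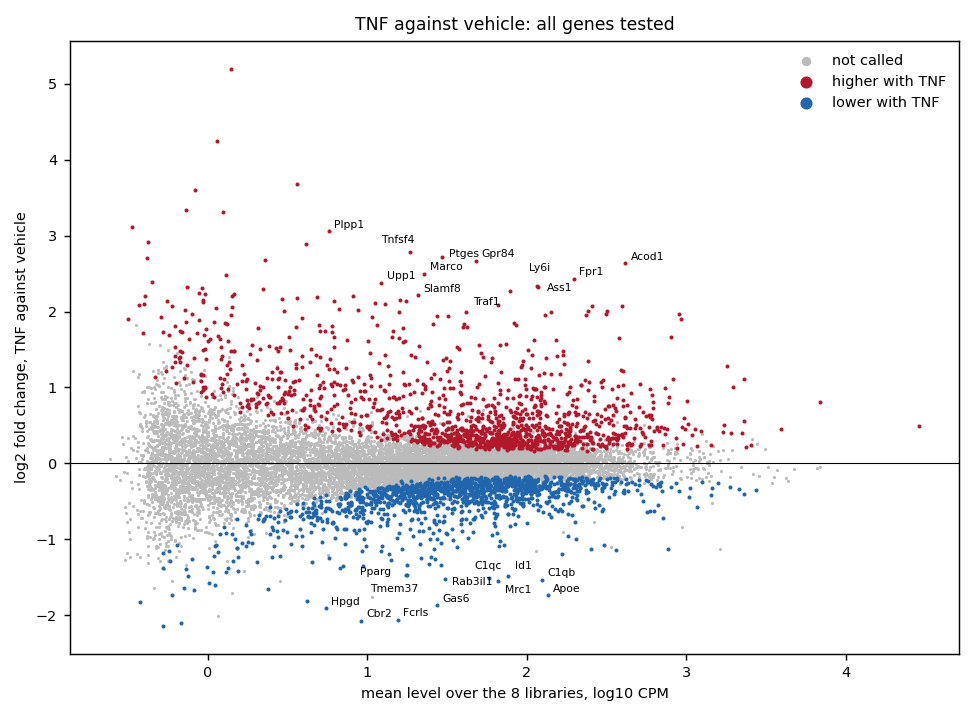
Each dot is 1 of the 13856 genes tested, with its mean level over the 8 libraries on the x axis (log10 CPM) and its log2 fold change, TNF against vehicle, on the y axis. Red marks the 1329 genes called higher and blue the 1363 called lower. The 12 named at the top and the 12 at the bottom have the largest changes among called genes with the same sign in 4 animals. These had a mean of at least 5 CPM over the 8 libraries.

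Genes were ranked among those called, with a mean of at least 5 CPM over the 8 libraries and the same sign in all 4 animals. Their direction within animals was thus fixed by the choice. The 12 genes with the largest rise were Plpp1, Tnfsf4, Ptges, Gpr84, Acod1, Marco, Fpr1, Upp1, Ly6i, Ass1, Traf1 and Slamf8. They rose 4.63-fold to 8.33-fold. Plpp1, Tnfsf4 and Upp1 had vehicle means of 1.28, 4.07 and 3.99 CPM and met the condition of level through their TNF libraries alone. In the order of animals 1 to 4, Acod1, which encodes the mitochondrial enzyme that makes itaconate, had 48.5, 32.9, 272 and 255 CPM with vehicle and 582, 457, 947 and 720.0 CPM with TNF (log2 2.64, SE 0.36, adjusted p = 7.07e-05). The groups did not overlap, although the vehicle levels of animals 3 and 4 were several times those of animals 1 and 2. Fpr1, a receptor for bacterial formyl peptides, differed in the same way before treatment, at 26.2, 38.7, 104 and 111 CPM, and reached a similar level in all animals with TNF, at 298, 318, 357 and 328 CPM (log2 2.43, SE 0.26, adjusted p = 7.10e-06).

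Tnfsf4 encodes OX40 ligand, a costimulatory signal for T cells. Its vehicle libraries had 4.83, 5.91, 2.20 and 3.34 CPM and its TNF libraries 46.3, 68.2, 8.52 and 8.06 CPM (log2 2.78, SE 0.28, adjusted p = 4.97e-06). The TNF libraries of animals 1 and 2 were several times higher than those of animals 3 and 4, yet all 4 lay above every vehicle library. Traf1, an adaptor of TNF receptor complexes and a target of NF-kB, went from 12.2, 9.06, 53.3 and 47.2 CPM to 93.8, 81.3, 186 and 140.1 CPM (log2 2.27, SE 0.23, adjusted p = 5.18e-06). Slamf8, a myeloid receptor of the SLAM family, went from 6.96, 4.20, 9.87 and 10.3 CPM to 39.1, 32.7, 33.4 and 30.5 CPM, and here the TNF libraries were close to each other (log2 2.21, SE 0.21, adjusted p = 2.28e-06). Plpp1, a phosphatase of lipid phosphates at the cell surface, had the largest fold of these 12, from 0.725, 0.701, 2.10 and 1.60 CPM to 9.68, 10.2, 9.74 and 11.0 CPM. Its vehicle libraries held 92 counts in all, so the size of that fold is uncertain.

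Marco, a scavenger receptor that binds bacteria, had 6.67, 5.26, 5.83 and 8.07 CPM with vehicle and 55.7, 58.4, 25.8 and 15.9 CPM with TNF, with the smallest response in animal 4. Upp1, which splits uridine, went from 4.01, 1.75, 5.83 and 4.36 CPM to 33.6, 15.3, 18.1 and 15.0 CPM, with the highest TNF level in animal 1. Ly6i, of the Ly6 family of surface proteins, was the exception to the separation of groups, with 6.72, 2.90, 104 and 97.7 CPM in vehicle and 72.7, 46.1, 295 and 297 CPM in TNF libraries (log2 2.34, SE 0.39, adjusted p = 0.000487). The vehicle libraries of animals 3 and 4 lay above the TNF libraries of animals 1 and 2, and the gene rose within each animal. Ly6i has close relatives, so its reads may be shared. Ass1, which makes argininosuccinate, rose 4.98-fold, and Gm5424, a close copy of it, rose by 2.20 on the log2 scale, so the pair is not told apart with certainty. Without the animal term Tnfsf4 (adjusted p = 0.0646), Traf1 (0.0763), Acod1 (0.152) and Ly6i (0.579) missed the threshold, and the other 8 passed.

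On GRCm38, in the GENCODE M21 annotation, Acod1 lies on chromosome 14 at 103046977 to 103056573 (plus strand), Fpr1 on chromosome 17 at 17876471 to 17883940 (minus strand), Tnfsf4 on chromosome 1 at 161395409 to 161418410 (plus strand) and Slamf8 on chromosome 1 at 172581758 to 172590568 (minus strand). All are protein-coding genes.

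Under the same conditions of level and sign, the 12 genes with the largest fall were Cbr2, Fcrls, Hpgd, Gas6, Apoe, Mrc1, C1qb, Rab3il1, C1qc, Id1, Pparg and Tmem37, at 0.238 to 0.360 of the vehicle level. Cbr2 and Hpgd had TNF means of 4.19 and 2.28 CPM and met the condition of level through their vehicle libraries alone. Several of the 12 are known in resident or alternatively activated macrophages. Mrc1, the mannose receptor CD206, had 194, 28.8, 72.8 and 90.7 CPM with vehicle and 47.1, 6.75, 40.5 and 44.1 CPM with TNF (log2 -1.55, SE 0.25, adjusted p = 0.000276). The groups overlapped because animal 2 was low in both, and the level fell in each animal. Apoe, the lipid-carrying apolipoprotein E, went from 38.5, 50.2, 340.0 and 387 CPM to 11.6, 11.0, 116 and 128 CPM (log2 -1.74, SE 0.17, adjusted p = 3.53e-06). Its levels differed far more between animals 1 and 2 and animals 3 and 4 than between vehicle and TNF, and the log2 changes within animals were alike, at -1.72, -2.18, -1.55 and -1.60.

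Fcrls, an Fc receptor-like protein of macrophages and microglia, fell from 13.2, 6.16, 36.1 and 40.4 CPM to 1.76, 0.913, 11.4 and 13.7 CPM, and the groups overlapped across animals (log2 -2.06, SE 0.22, adjusted p = 7.10e-06). Cbr2, a carbonyl reductase, fell from 12.1, 6.71, 18.5 and 19.2 CPM to 1.56, 0.426, 7.49 and 7.28 CPM, most in animal 2 (log2 -2.07, SE 0.27, adjusted p = 4.40e-05). C1qb and C1qc encode chains of C1q, which opens the classical complement pathway. C1qb went from 154, 90.8, 222 and 222 CPM to 37.7, 13.9, 117 and 137 CPM, a log2 change of -2.03, -2.69, -0.92 and -0.70 in animals 1 to 4. C1qc showed the same division, from 43.3 to 107 CPM with vehicle to 5.66 to 62.7 CPM with TNF, and C1qa, the third chain, fell by 1.34 on the log2 scale (adjusted p = 0.000575). In all 3 the fall was larger in animals 1 and 2.

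Gas6, a bridging molecule between dying cells and the receptors Axl and Mertk, had 59.8, 27.4, 36.8 and 45.1 CPM with vehicle and 14.6, 5.48, 14.3 and 13.8 CPM with TNF. Pparg, a nuclear receptor for fatty acids, went from 37.5, 28.3, 17.5 and 20.6 CPM to 13.1, 9.37, 6.00 and 8.51 CPM. Id1, which blocks helix-loop-helix transcription factors, went from 123, 142, 91.6 and 91.9 CPM to 45.5, 35.8, 32.4 and 47.3 CPM. In these 3 genes every TNF library lay below every vehicle library, and they are the only ones of the 12 that also passed without the animal term (adjusted p = 0.0278, 0.00603 and 0.000163). For the other 9 that adjusted p was 0.133 to 0.633. Rab3il1, a Rab exchange factor, also had groups that did not overlap, from 52.6, 28.1, 45.1 and 54.2 CPM to 14.4, 8.88, 21.1 and 21.2 CPM.

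On GRCm38, Mrc1 lies on chromosome 2 at 14229392 to 14332057 (plus strand), Apoe on chromosome 7 at 19696109 to 19699188 (minus strand) and Fcrls on chromosome 3 at 87250758 to 87263738 (minus strand). C1qb and C1qc are neighbours on the minus strand of chromosome 4, at 136880129 to 136886187 and 136889804 to 136893065.

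**Figure D2:**
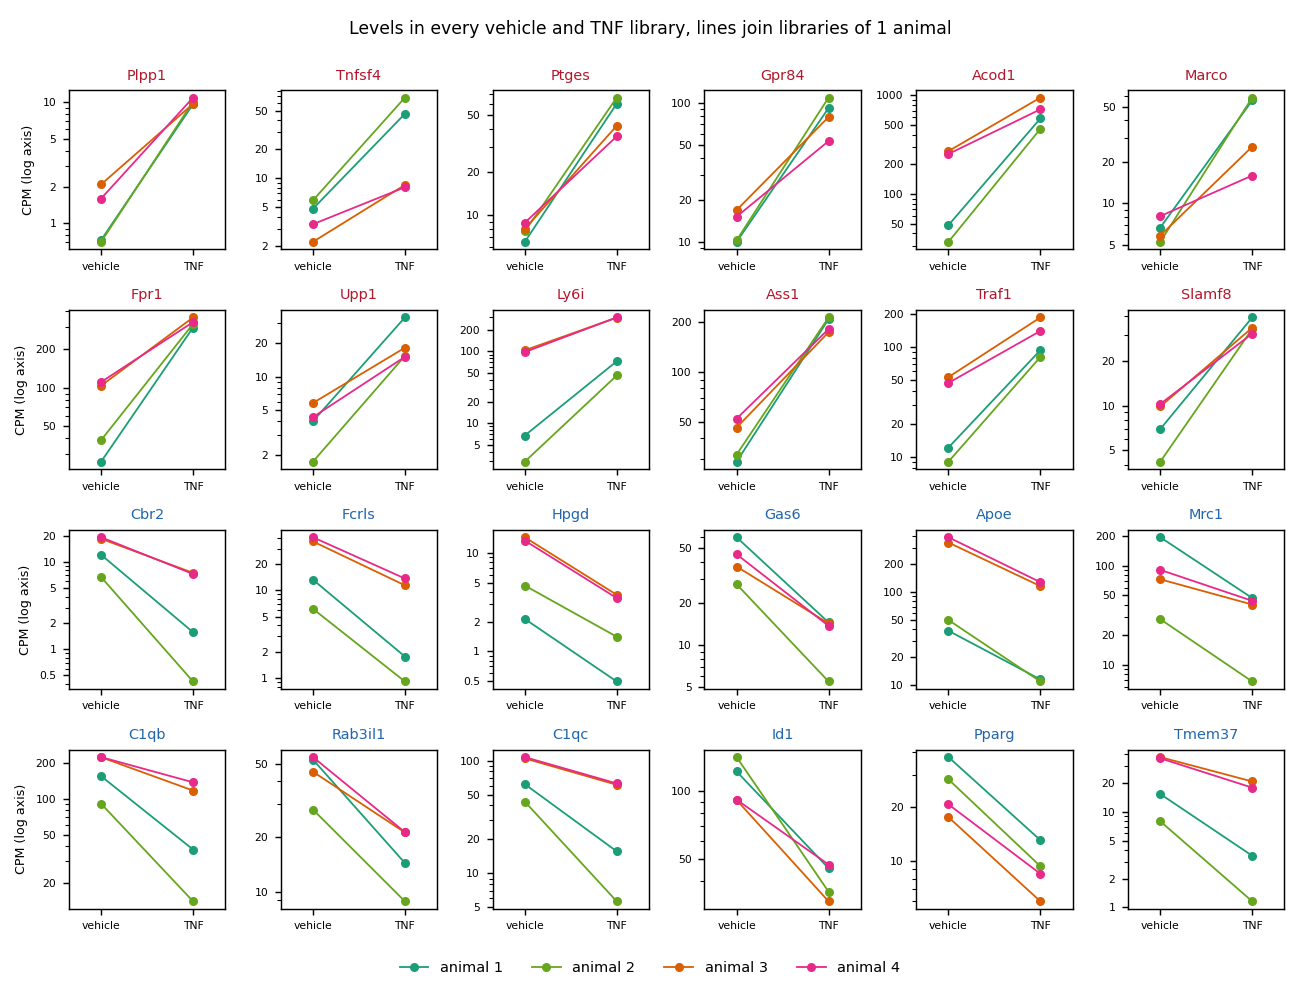
Levels of the 12 genes with the largest rise (red titles) and the 12 with the largest fall (blue titles), in CPM on log axes, for each vehicle and TNF library; lines join the libraries of 1 animal. Every line goes the way its title colour says, because genes were chosen for the same sign in 4 animals. For genes such as Apoe, Ly6i and Fcrls the animals start at different levels, with animals 3 and 4 above animals 1 and 2.

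The counts given for all gene lists are to be read beside the 9.59% of all genes that rose and the 9.84% that fell. Most NF-kB pathway genes rose. Of the 21 tested subunits, kinases and inhibitors 16 rose and 0 fell, beside 9.59% and 9.84% of all genes, and all 21 were above 0. Their median log2 change was 0.64, against -0.02 over all genes tested, and 0.82, 1.08, 0.55 and 0.36 in animals 1 to 4. Without the animal term 9 rose and 0 fell. Among the inhibitors, Nfkbia (IkB alpha) had 176, 178, 195 and 173 CPM with vehicle and 659, 623, 628 and 398 CPM with TNF (log2 1.65, SE 0.10, adjusted p = 7.60e-08). The 4 vehicle libraries were almost level, and animal 4 given TNF was the lowest of its group yet above all of them. Nfkbie (IkB epsilon) went from 21.2, 19.6, 59.6 and 57.0 CPM to 93.7, 92.8, 170.1 and 166 CPM (log2 1.83, SE 0.13, adjusted p = 1.11e-07). Tnfaip3 (A20), a ubiquitin-editing enzyme, went from 93.7, 77.2, 106 and 115 CPM to 466, 415, 472 and 304 CPM. The subunits Relb (1.40 on the log2 scale), Nfkb2 (1.19), Rel (0.64) and Rela (0.28) rose, as did the kinase Ikbke (0.98) and its partner Tank (0.88).

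Of 20 tested genes of the receptor complex upstream 4 rose and 1 fell, beside 9.59% and 9.84% of all genes, with a median of 0.02 that turns negative when scaled by library size alone. Beside Traf1, the risers were Birc3 (1.41) and Birc2 (0.41), the cellular IAP ligases, and Traf3 (0.60), an adaptor that holds back the alternative NF-kB pathway. Otulin, which removes linear ubiquitin chains, fell (-0.32). Of the receptors, Tnfrsf1b had 355, 276, 798 and 809 CPM with vehicle and 1009.5, 840.0, 1333 and 1179 CPM with TNF (log2 1.11, SE 0.17, adjusted p = 0.000175). Tnfrsf1a had 214, 240.3, 299 and 307 CPM and 209, 213, 273 and 271 CPM in the same order and did not pass (log2 -0.13, SE 0.07, adjusted p = 0.179). Tnfrsf1b missed the threshold without the animal term (adjusted p = 0.304). The transcript of Tnf itself went from 50.4, 52.0, 53.6 and 48.4 CPM to 178, 196, 153 and 77.3 CPM, with the smallest rise in animal 4 (log2 1.49, SE 0.16, adjusted p = 9.15e-06).

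Promoter sequences of NF-kB pathway and chemokine genes that rose are shown because they hold the kB consensus, the decamer bound by NF-kB. The 250 bases before each RefSeq gene start (GRCm38.p6) were searched on both strands, and the consensus was found in 3.9% of all 32851 windows. That share is per window and includes genes not tested here, while a gene counts below if any of its windows holds a match. The figures are thus not like for like. Of the 21 tested NF-kB pathway genes 17 had a window and 9 of these held a match: Rel, Nfkb2, Nfkbia, Nfkbie, Nfkbid, Tnfaip3, Tnip1, Tnip3 and Tank. Stretches around the match follow, 5′ to 3′ along the gene's strand, with the match in capitals. The match of Nfkbia and that of Tnfaip3 read as the consensus on the opposite strand, and Tnfaip3 has a further match upstream. The decamers of Cxcl1, Cxcl2 and Cxcl3 each overlap a match on the opposite strand, 1 base on.
Nfkbia, chr12:55492648-55492706, minus strand: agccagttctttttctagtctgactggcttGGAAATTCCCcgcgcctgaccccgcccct
Tnfaip3, chr10:19015411-19015452, minus strand: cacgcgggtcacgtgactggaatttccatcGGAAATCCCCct
Nfkbie, chr17:45555564-45555633, plus strand: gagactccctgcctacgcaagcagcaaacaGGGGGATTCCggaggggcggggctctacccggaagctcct
Cxcl1, chr5:90891144-90891213, plus strand: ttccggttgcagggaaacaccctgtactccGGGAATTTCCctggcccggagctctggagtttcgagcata
Cxcl2, chr5:90903772-90903841, plus strand: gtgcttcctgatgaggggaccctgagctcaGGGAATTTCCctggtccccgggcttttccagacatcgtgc
Cxcl3, chr5:90785998-90786067, plus strand: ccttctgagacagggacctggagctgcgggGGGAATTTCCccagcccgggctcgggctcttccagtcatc
The neighbouring genes Cxcl1, Cxcl2 and Cxcl3 share the decamer GGGAATTTCC, at 71, 97 and 73 bases before the start. None of the 9 genes with a window among the 12 with the largest rise held a match, and C1qc did among 11 with a window of the 12 with the largest fall. Bcl2l1, Fcgr3 and Lgmn, which also fell, held a match too, as did further risen genes such as Sod2 and Ccrl2. A match describes the letters only, and binding was not measured.

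Of 16 tested chemokines 8 rose and 3 fell, beside 9.59% and 9.84% of all genes. Their median was 0.53 and was above 0 in each animal (0.93, 0.85, 0.57 and 0.34). Without the animal term 4 rose and 0 fell. The neutrophil attractants Cxcl1, Cxcl2 and Cxcl3, whose promoters are shown above, all rose. Cxcl2 had 103, 90.5, 167 and 148 CPM with vehicle and 538, 382, 672 and 443 CPM with TNF (log2 2.00, SE 0.14, adjusted p = 1.11e-07). Cxcl1 went from 5.41, 3.45, 8.18 and 5.96 CPM to 24.0, 13.3, 43.9 and 24.4 CPM, and Cxcl3 from 14.4, 9.06, 11.2 and 7.49 CPM to 47.4, 28.6, 31.9 and 17.8 CPM. In all 3 no TNF library overlapped the vehicle libraries. Cxcl16 (1.18), Ccl22 (1.37), Ccl5 (0.96), Ccl3 (0.48) and the interferon-inducible Cxcl10 (1.61) rose as well. Ccl2, Ccl7 and Ccl6 fell. Ccl2, which attracts monocytes, had 1415, 619.6, 564 and 568 CPM with vehicle and 830.4, 367, 424 and 493 CPM with TNF (log2 -0.55, SE 0.11, adjusted p = 0.00263). Ccl7 fell by 1.08 on the log2 scale and Ccl6 by 0.52. Ccl2 and Ccl7 started highest in animal 1. Ccr2, the receptor for Ccl2 and a marker of inflammatory monocytes, fell too, from 663, 497, 1199 and 1131 CPM to 338, 291, 774 and 803 CPM (log2 -0.71, SE 0.08, adjusted p = 1.47e-05).

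Interleukins and growth factors counted 9 risen and 4 fallen of 26 tested, with a median of 0.24. Il1b, which encodes interleukin 1 beta, had 62.3, 103, 789.7 and 750.5 CPM with vehicle and 350.3, 278, 2218 and 1867 CPM with TNF (log2 1.66, SE 0.21, adjusted p = 2.79e-05). Animals 3 and 4 had the higher level in both groups, and animal 1 had the largest change within animals (2.49, 1.43, 1.49 and 1.31). Il1a (2.14), the interleukin 1 antagonist Il1rn (0.85), Il6 (0.67) and the granulocyte growth factor Csf3 (2.31) also rose, Csf3 from low levels of 0.338, 0.250, 0.307 and 0.364 CPM. The anti-inflammatory Il10 fell, from 14.0, 6.36, 6.19 and 6.25 CPM to 5.13, 2.86, 2.81 and 2.58 CPM (log2 -1.25, SE 0.23, adjusted p = 0.000882). Every TNF library was below every vehicle library for Il10. Tgfb3 (-2.14), the platelet-derived growth factor chain Pdgfa (-0.63) and Gdf15 (-0.66) fell as well. Tgfb3 fell more than the genes ranked for the largest fall but did not meet their conditions of level or sign.

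Among 30 TNF superfamily ligands and receptors 11 rose and 5 fell. The risers included the death receptors Fas (1.80) and Tnfrsf10b (0.91), the costimulatory receptors Cd40 (0.63) and Tnfrsf9 (1.42), and the ligand Lta (2.70). Lta was below 1 CPM in every vehicle library and stayed low with TNF, with means of 0.112 and 0.720 CPM. Tnfsf13b, which encodes the B-cell survival factor BAFF, fell (-0.60), as did Tnfrsf11a (-0.28), the receptor RANK of osteoclast precursors. Of 33 cytokine receptors 11 rose and 3 fell, with the M-CSF receptor Csf1r at 1153, 1109, 2136 and 2245 CPM with vehicle and 1615, 1566, 2864 and 2606 CPM with TNF (log2 0.40, SE 0.07, adjusted p = 0.000823). It rose in each animal, and animals 3 and 4 were higher than animals 1 and 2 in both groups. Without the animal term its adjusted p was 0.685.

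Surface receptors that sense microbes and attractants changed in both directions. Of 26 chemokine and chemoattractant receptors 12 rose and 8 fell. Gpr84, which responds to medium-chain fatty acids, and Fpr1 and Fpr2 (1.96) for formyl peptides rose, together with Ccrl2 (1.94), a decoy-like receptor, and Ccr7, which guides cells to lymph nodes. Ccr7 had 5.07, 3.45, 10.2 and 7.71 CPM with vehicle and 33.7, 18.4, 26.4 and 21.8 CPM with TNF (log2 1.99, SE 0.21, adjusted p = 7.42e-06). The complement receptors C3ar1 (-0.64), C5ar1 (-0.31) and C5ar2 (-0.64), the leukotriene receptor Ltb4r1 (-0.51) and Cxcr4 (-0.51) fell, as did Gpr183, a receptor for oxysterols, from 90.5, 64.7, 92.4 and 91.8 CPM to 46.4, 32.4, 50.8 and 50.3 CPM (log2 -0.92, SE 0.07, adjusted p = 4.09e-07).

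Among 36 pattern recognition and inflammasome genes 16 rose and 5 fell, with a median of 0.19. Clec4e, the receptor Mincle for mycobacterial glycolipid, had 327, 221, 556 and 520.0 CPM with vehicle and 1597, 1296, 1522 and 1321 CPM with TNF (log2 1.91, SE 0.18, adjusted p = 1.96e-06). Tlr2 (1.21), Cd14 (0.67), Nod2 (0.88) and Nlrp3 (0.60) rose, while Tlr4 (-0.52), Tlr5 (-0.44) and Tlr9 (-0.80) fell. Of 7 Fc receptors for immunoglobulin, the inhibitory Fcgr2b (0.77) and the related Fcrlb (1.17) rose and Fcgr1 (-0.96), Fcgr3 (-0.63) and Fcgrt (-0.64) fell. Fcgr1 lost its call without animal 1, without the vehicle library of animal 2 or without the TNF library of animal 1 (adjusted p up to 0.0805).

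Costimulation and checkpoint genes counted 11 risen and 1 fallen of 22, with a median of 0.50. They included the ligands Cd274 (1.63) and Pdcd1lg2 (0.84) of the PD-1 receptor, Cd80 (0.56), Cd83 (0.65) and Fscn1 (1.82), an actin bundler of mature dendritic cells. Havcr2, the receptor TIM-3, fell (-0.99). Of 27 adhesion molecules 12 rose and 6 fell. Icam1, the endothelial and leukocyte ligand of beta2 integrins, went from 47.2, 42.1, 61.6 and 64.8 CPM to 145, 142, 121 and 117 CPM (log2 1.30, SE 0.14, adjusted p = 7.42e-06). Itgb5 (-1.20) and Itga6 (-0.78), integrin subunits, fell. Dendritic cell markers as a list counted 2 risen and 2 fallen of 14, Ccr7 and Dpp4 (0.48) against Cd209a (-1.42) and Tcf4 (-0.37).

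In antigen presentation, 8 of 19 class I genes rose and 0 fell, B2m (0.56) and H2-K1 (0.43) among them, and of 11 class II genes 0 rose and 2 fell, H2-DMa (-0.57) and H2-DMb1 (-0.49). The class II median was 0.21, 0.37, -0.30 and -0.43 in animals 1 to 4, above 0 in animals 1 and 2 and below 0 in animals 3 and 4. H2-Q6 (1.21), H2-Q7 (0.99) and H2-Q4 (0.67) also rose, but these are near-identical copies whose reads are uncertain. Interferon-stimulated genes had 5 risen and 0 fallen of 30, with 27 above 0 and a median of 0.32 that was largest in animal 1 (0.74, 0.22, 0.16 and 0.26).

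**Figure D3:**
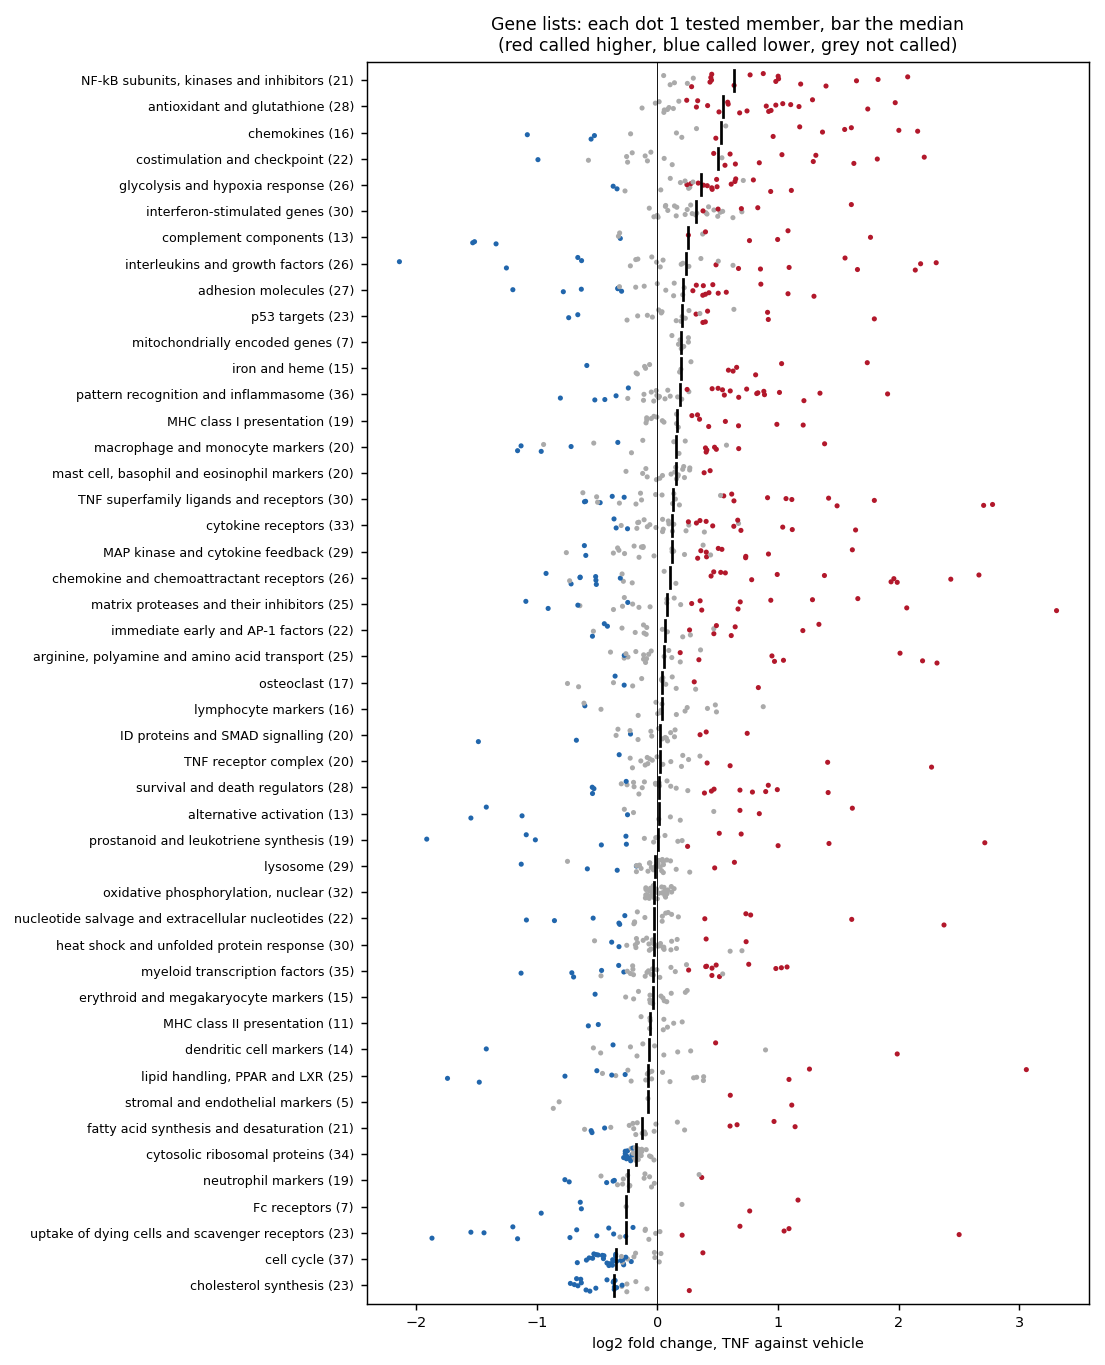
Log2 fold change, TNF against vehicle, of every tested member of 47 gene lists (x axis), 1 dot a gene, red where called higher, blue where called lower and grey where not called; black bars are medians and the number tested stands in brackets. NF-kB pathway genes have the highest median (0.64, 16 of 21 called higher) and cholesterol synthesis the lowest (-0.36, 17 of 23 called lower).

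Transcription factors of the macrophage state moved singly: 11 of 35 rose and 6 fell. Maf, a transcription factor of macrophages, went from 145, 93.7, 231 and 226 CPM to 74.1, 56.5, 146 and 162 CPM, with groups that overlapped across animals, and passed within animals (adjusted p = 1.31e-05), but not without the animal term (0.572). Cebpa (-0.69) and Klf4 (-0.28) fell, whereas Hif1a, the hypoxia-inducible factor, rose from 164, 147, 211 and 229 CPM to 347, 352, 417 and 451 CPM (log2 1.07, SE 0.08, adjusted p = 1.20e-07). Ets2 (1.03), Bhlhe40 (0.98) and Cebpb (0.51) rose. Of 22 immediate early and AP-1 genes 7 rose and 3 fell, Maff (1.21) and Junb (0.47) against Fosb (-0.54) and Myc (-0.44).

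Among 29 MAP kinase and cytokine feedback genes 10 rose and 2 fell, including the phosphatases Dusp16 (0.92), Dusp5 (0.73) and Dusp1 (0.33) and the cytokine signal suppressor Socs3 (0.53). Of 28 survival and death regulators 9 rose and 4 fell: Cflar (0.68), which blocks caspase-8, and Mcl1 (0.45) rose, and Bcl2l1 (-0.54), Bid (-0.54) and Ripk3 (-0.26) fell. The Bcl2a1 copies Bcl2a1a, Bcl2a1b and Bcl2a1d rose but are near-identical and share reads. Of 20 ID and SMAD genes 3 rose and 3 fell (15.0% each, against 9.59% and 9.84% of all genes), with Id3 (-0.67) beside Id1. Of 23 p53 targets 7 rose and 2 fell, with Mdm2 (0.40) and the cell cycle inhibitor Cdkn1a (0.38) among the risers.

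In prostanoid synthesis the inducible enzymes that make prostaglandin E2 rose and the enzyme that breaks it down fell. Ptgs2, the inducible cyclooxygenase COX-2, had 32.4, 34.9, 140.0 and 146 CPM with vehicle and 109, 60.7, 416 and 417 CPM with TNF (log2 1.42, SE 0.17, adjusted p = 1.77e-05). Animals 3 and 4 were higher than animals 1 and 2 in both groups, and Ptgs2 missed the threshold without the animal term (adjusted p = 0.439). Ptges, the synthase downstream of it, had 6.52, 7.71, 8.03 and 8.87 CPM with vehicle and 60.2, 66.4, 42.3 and 35.6 CPM with TNF. Hpgd, which inactivates prostaglandins, fell from 2.13, 4.65, 14.5 and 13.4 CPM to 0.489, 1.40, 3.75 and 3.47 CPM (log2 -1.91, SE 0.20, adjusted p = 6.57e-06), and the fall within animals was nearly the same (-1.88, -1.65, -1.91 and -1.91). Hpgds, the synthase of prostaglandin D2, fell by 1.01 on the log2 scale (adjusted p = 8.22e-05), and Ptgs1, the constitutive cyclooxygenase, fell slightly (-0.26). Over the list of 19, 6 rose and 6 fell, and its median of 0.01 changes sign with library size scaling.

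Antioxidant and glycolytic genes rose in larger shares than the 9.59% of all genes. Of 28 antioxidant and glutathione genes 19 rose and 0 fell, with a median of 0.55 and per-animal medians of 0.70, 0.68, 0.35 and 0.27. Without the animal term 6 rose and 0 fell. Sod2, the mitochondrial superoxide dismutase, had 124, 106, 140.3 and 139.8 CPM with vehicle and 597, 569, 453 and 392 CPM with TNF. Srxn1 (0.98), Nqo1 (1.17), Txnrd1 (0.90) and Gclm (0.92), known targets of the oxidant-sensing factor NRF2, rose, as did its gene Nfe2l2 (0.68). So did the NADPH oxidase subunits Cybb (1.29) and Cyba (0.24), which make superoxide. Slc7a11, which imports cystine for glutathione, went from 90.8, 79.4, 87.4 and 101 CPM to 529.5, 581, 223 and 241 CPM, with the larger rise in animals 1 and 2 (log2 2.01, SE 0.20, adjusted p = 5.13e-06). Of 15 iron and heme genes 6 rose and 1 fell. Ferritin heavy chain Fth1 went from 5505, 4776, 4840.0 and 4913 CPM to 11012, 9076, 8236 and 7107 CPM.

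Glycolysis and hypoxia response genes had 15 risen and 2 fallen of 26, and the median was 0.36. Here the larger medians lay in animals 3 and 4 (0.20, 0.07, 0.46 and 0.64). The glucose transporter Slc2a1 went from 91.5, 82.3, 182 and 154 CPM to 177, 173, 332 and 279 CPM (log2 0.94, SE 0.08, adjusted p = 9.58e-07), and the groups overlapped by the vehicle library of animal 3 alone. Slc2a6 (1.11), the lactate exporter Slc16a3 (0.64), Pfkfb3 (0.49) and Hk2 (0.45) rose, while Hk3 fell (-0.33). Without the animal term 0 of the 26 rose and 1 fell. No gene of nuclear oxidative phosphorylation passed, 0 of 32 in each direction, with a median of -0.03. None of 7 mitochondrially encoded genes passed, and their median was 0.30, 0.70, -0.07 and -0.20 in animals 1 to 4. In the arginine and amino acid list 8 of 25 rose and 1 fell, or 6 and 5 with library size scaling, and the risers included Ass1, Arg2 (0.97) and Gch1 (1.05), which makes a cofactor of nitric oxide synthase.

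Of 23 genes for the uptake of dying cells and scavenging 12 fell (52.2%) and 5 rose (21.7%), beside 9.84% and 9.59% of all genes. Their median was -0.26 and was below 0 in each animal (-0.13, -0.32, -0.25 and -0.23). Without the animal term 2 rose and 3 fell. Mertk, a receptor for Gas6 on dying cells, went from 9.62, 5.96, 22.6 and 26.8 CPM to 3.27, 1.89, 12.7 and 15.0 CPM (log2 -1.16, SE 0.16, adjusted p = 8.35e-05). It fell in each animal, and animals 3 and 4 were the higher ones in both groups. The lipid-sensing receptor Trem2 had 194 to 257 CPM with vehicle and 129 to 160.3 CPM with TNF, with no overlap. Pros1 (-0.72), Cd36 (-0.50) and Scarb1 (-0.36) fell, whereas Marco, Olr1 (1.05), Msr1 (0.21) and the cholesterol exporter Abca1 (1.09) rose. Complement components divided, 6 risen and 4 fallen of 13: against the C1q chains, C3, the central component, rose from 366, 484, 515 and 605 CPM to 851, 987, 1069 and 983 CPM (log2 1.00, SE 0.09, adjusted p = 1.47e-06). Alternative activation genes had 3 risen and 4 fallen of 13, with Mrc1 and Clec10a (-1.12), both lectins, among the fallen.

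Most cholesterol synthesis genes fell. Of 23 tested 17 fell and 1 rose, beside 9.84% and 9.59% of all genes. The median was -0.36, and the per-animal medians were close to each other (-0.42, -0.45, -0.45 and -0.46). Sqle, which oxidises squalene, was at 69.8, 80.8, 80.5 and 83.5 CPM with vehicle and 46.1, 49.2, 45.8 and 54.3 CPM with TNF (log2 -0.69, SE 0.08, adjusted p = 9.33e-06). Without the animal term 4 fell and 0 rose. Lipid handling, PPAR and LXR genes counted 3 risen and 6 fallen of 25, the fallen including Pltp (-0.77) and Fabp5 (-0.38), and fatty acid synthesis counted 4 risen and 3 fallen of 21, with Fasn (-0.54) among the fallen.

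Cell cycle genes fell in small steps. Of 37 tested 27 fell and 1, Cdkn1a, rose, beside 9.84% and 9.59% of all genes. The median was -0.35, and -0.48, -0.40, -0.29 and -0.17 in animals 1 to 4. The fallen included the replication licensing factor Cdt1, from 117, 138, 76.0 and 71.8 CPM to 71.7, 84.0, 49.2 and 47.5 CPM (log2 -0.66, SE 0.09, adjusted p = 6.51e-05), cyclin Ccnd1 (-0.53) and the mitotic kinases Aurkb (-0.54) and Plk1 (-0.57). The Cdt1 groups overlapped across animals, and without the animal term 0 of the 37 passed in either direction. Of 34 cytosolic ribosomal protein genes 10 fell and 0 rose, all 34 were below 0, and the median was -0.18. The number fallen was 24 with library size scaling and 5 with DESeq2 factors, and Rpl3, Rpl8 and Rpl10 each lost the call in 7 of the 12 fits that left out an animal or a library (adjusted p up to 0.124, 0.0849 and 0.173).

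Of 25 matrix proteases and inhibitors 10 rose and 4 fell. Mmp14, a membrane-bound collagenase, went from 65.2, 41.8, 330.4 and 351 CPM to 447, 394, 809 and 709 CPM (log2 2.07, SE 0.39, adjusted p = 0.00133). Plau, the urokinase plasminogen activator, went the other way, from 104, 108, 79.1 and 72.7 CPM to 48.0, 39.9, 44.7 and 38.7 CPM (log2 -1.09, SE 0.11, adjusted p = 3.92e-06). Adam17, which sheds TNF from the cell surface, rose (0.69). Osteoclast genes counted 2 risen and 2 fallen of 17, and lysosomal genes 2 risen and 4 fallen of 29. Legumain, Lgmn, a lysosomal protease, had 971, 704, 1144 and 1278 CPM with vehicle and 394, 241, 653 and 749 CPM with TNF (log2 -1.13, SE 0.13, adjusted p = 1.09e-05). It fell within each animal, and its groups overlapped only between animal 2 with vehicle and animal 4 with TNF. Nucleotide salvage and extracellular nucleotide genes counted 5 risen and 6 fallen of 22, with Nampt (0.77) and the adenosine receptor Adora2a (1.61) up and the ATP-splitting Entpd1 (-0.85) and Enpp1 (-1.09) down. Heat shock and unfolded protein genes counted 2 risen and 2 fallen of 30 (6.67% each, below the 9.59% and 9.84% of all genes), and 1 and 7 with library size scaling.

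The effect of TNF was measured again in the 8 libraries that also held PFM037, from the same animals but with separate libraries on both sides. There 1475 genes rose (10.6%) and 1353 fell (9.76%). Of the 1329 genes risen against vehicle 1305 had the same sign and 990 rose (74.5%), which is 67.1% of those risen with PFM037. Of the 1363 fallen 1352 had the same sign and 841 fell (61.7%), or 62.2% of those fallen with PFM037. Over all genes tested, 48.3% were above 0 and 51.7% below 0 with PFM037. Both comparisons came from the same fit, with a shared estimate of each gene's spread, so their calls are not independent. All 24 genes with the largest rise or fall were called in the same direction. Acod1 had a log2 change of 2.87 (adjusted p = 3.93e-05), Fpr1 of 2.35 (1.01e-05), Apoe of -1.60 (7.95e-06) and Mrc1 of -1.38 (0.00119). Tnfsf4, at 2.78 against vehicle and 1.73 with PFM037, had a difference of -1.05 (SE 0.41, unadjusted p = 0.0215) that did not pass the adjustment.

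A single gene, Gm2221, was called in opposite directions, at 0.64 against vehicle and -0.70 with PFM037. The difference of both TNF effects was tested for every gene, and 0 passed in edgeR, in DESeq2 and in limma-voom. In edgeR 383 genes (2.76%) were at an unadjusted p under 0.05, where 5% would lie if no gene differed. A share below 5% means that these p-values run high, so the test can miss differences. Why they run high was not tested. A p that misses the threshold does not show that the effects are equal, and the SE of the difference was, for example, 0.47 for Acod1 and 0.14 for Nfkbia on the log2 scale. With no filter on low counts 34 genes passed.

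**Figure D4:**
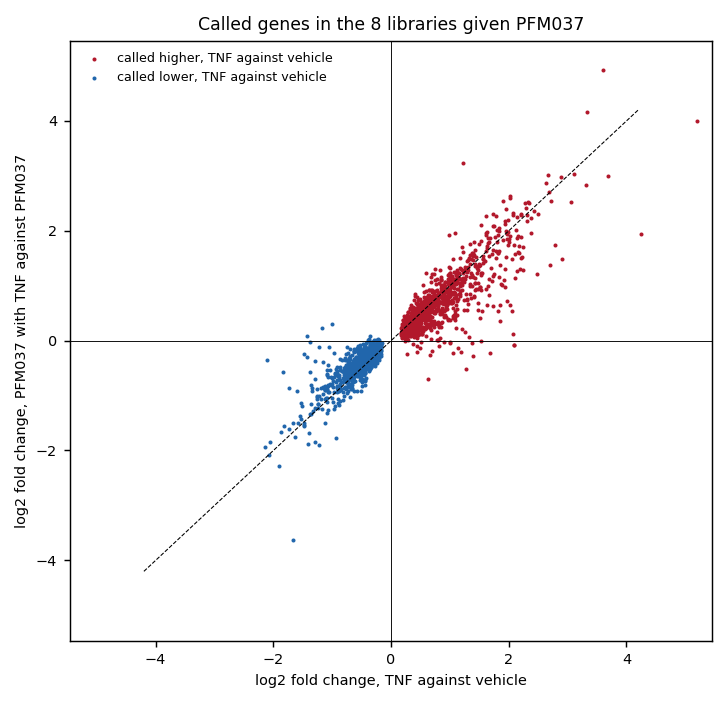
The 2692 called genes, with the log2 fold change of TNF against vehicle on the x axis and that of PFM037 with TNF against PFM037 on the y axis; red genes were called higher and blue lower against vehicle, and the dashed line marks equal values. In these, 1305 of 1329 red and 1352 of 1363 blue genes have the same sign in both comparisons. Over all genes tested, 48.3% were above 0 and 51.7% below 0 with PFM037.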

How the data were processed

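RNA of bone marrow-derived monocytes from 4 wild-type animals was sequenced as single 75-base reads from 500 ng of total RNA with a stranded poly(A) kit, per the labels' protocols. The submitters' processing notes name STAR 2.5.3a, featureCounts and limma, and mm10 (GRCm38). For the counting, annotation and strand setting are not stated in the labels. The deposited values are the authors' read counts per gene, not normalized.

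All 16 libraries entered a single fit with edgeR 4.0.16 under R 4.3.3 (quasi-likelihood F-test, TMM, filterByExpr with minimum count 10 and minimum total 15), in a model with a mean per group and the animal as a block. The pairing comes from the animal number in the labels, and libraries of the same animal deviated together (correlations of 0.608 to 0.667). P-values were two-sided, adjusted by Benjamini-Hochberg over 13856 genes and called under 0.05. They measure the spread left once group means and the levels of the animals are fitted, over all 16 libraries, and hold for these animals. Of the genes tested 19 had no usable symbol. On simulated counts with 200 changed genes the step recovered 70% of 1.5-fold and 77% of 2-fold changes, with 9 false among 156 calls. The simulation changed far fewer genes than were called, in the TNF group alone and by the same fold in every animal. Its shares therefore need not hold for these data. No pair of vehicle libraries and no pair of TNF libraries matched within sampling noise, and other pairs were not compared.

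Named genes are those called, with a mean of 5 CPM or more over the 8 libraries and 1 sign in 4 animals, that had the 12 highest or 12 lowest fold changes. Up to 3 called members per list with the smallest adjusted p were added, plus Tnf, Tnfrsf1a, Tnfrsf1b, Csf1r and Nfkbia. Other list members, and Gm5424 and Gm2221, were named after their values were seen, and some genes are not reported here. The members and lists were chosen with earlier results of these data known. Marker sums are CPM without TMM factors. Alternatives were no block, other scaling, other filters, DESeq2 1.42.0, limma-voom 3.58.1, the 8 libraries alone, and each animal or library left out.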

Additional observations from a re-analysis of the deposited data

Results flagged for a closer look

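For the 134 named genes the vehicle levels, the TNF levels and the log2 changes of the 4 animals were examined for 1 value far from the other 3, and 15 of 402 groups had one. Chance flags about 1 in 20 groups. Of the 15 values, 3 came from animal 1, 9 from animal 2, 2 from animal 3 and 1 from animal 4. With TNF, Upp1 in animal 1 stood at 33.6 CPM, above 15.0 to 18.1 CPM in the others. Nfkbia in animal 4 with TNF was low, at 398 CPM against 623 to 659 CPM. Mrc1 in animal 2 with TNF was at 6.75 CPM against 40.5 to 47.1 CPM, and Gas6 in the same library at 5.48 CPM against 13.8 to 14.6 CPM. Cd209a in that library was high, at 1.16 CPM against 0.587 to 0.672 CPM. In animal 3 with TNF, Maff was at 28.0 CPM against 21.2 to 21.97 CPM and Il2rg at 152 CPM against 124 to 128 CPM. In the vehicle library of animal 2, Ltf was at 2657 CPM against 1214 to 1390 CPM, Gpr183 at 64.7 CPM against 90.5 to 92.4 CPM and Clec4d at 608 CPM against 759 to 790 CPM. The log2 change of Il1b was 2.49 in animal 1 and 1.31 to 1.49 in the others, and that of H2-Q4 was 0.93 in animal 1 and 0.58 to 0.61 in the others. In animal 2 the log2 change of Fcgr2b was 1.17 against 0.59 to 0.68, that of Retnlg -1.21 against -0.66 to -0.61, and that of Hpgd -1.65 against -1.91 to -1.88.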

How the results depend on the processing

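With the animal as a block 2692 genes were called, and other scalings, filters and tools and a fit of the 8 libraries alone gave 2560 to 3212. No replicate block gave 371 calls, 45 past 1.5-fold (256 with the block) and 312 with PFM037 (2828 with it), and library size alone with no block, an alternative chosen after seeing the data, gave 407, 43 and 353. The cause was not tested. No filter on low counts gave 409 past 1.5-fold, and 34 for the difference of the TNF effects (0 otherwise). Leaving out an animal or a library gave 1581 to 2472 calls, 145 to 290 past 1.5-fold, 1434 to 2464 with PFM037 and 0 to 0 for the difference, with fewer samples in each fit. Past 1.5-fold the count was 145 without animal 1, 158 without animal 2 and 170 without the TNF library of animal 1, and with PFM037 1596 without animal 2 and 1434 without animal 4. With library size as the only scaling and the block kept, more genes fell in TNF superfamily (8 for 5), cytokine receptor (7 for 3), MAP kinase feedback (4 for 2), lysosome (7 for 4), osteoclast (4 for 2) and neutrophil marker (8 for 5, and 0 rose for 1) lists, and 1 in place of 2 Fc receptors rose. None of the 134 named genes reversed under these alternatives, and 76 missed the threshold without the block. Calls of Dcstamp, Gbp5, Ear1, Bmpr2, Kit, Rpl3, Rpl8, Rpl10, Bag3, Jdp2, Ltf, Nkg7 and Fcgr1 were lost when some animal or library was left out. Genes of low count are limited by depth, most in the shallowest TNF library.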

Other observations

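Among 622 long non-coding RNAs tested 45 rose and 18 fell, at a median level of 1.37 CPM, beside 1197 risen and 1305 fallen of 11547 protein-coding genes, at a median level of 32.4 CPM. Those named here had a mean of at least 5 CPM over the 8 libraries. Gm20658 had 18.4, 18.3, 18.7 and 16.0 CPM with vehicle and 51.1, 51.7, 30.7 and 23.9 CPM with TNF in animals 1 to 4 (log2 1.11, SE 0.16, adjusted p = 0.000146). Gm15832 had 5.94, 3.00, 21.7 and 13.0 CPM and 17.4, 14.7, 42.4 and 31.7 CPM (log2 1.42, SE 0.17, adjusted p = 2.11e-05), with animals 3 and 4 higher in both groups. Gm43672 fell in each animal, from 5.56 to 8.18 CPM with vehicle to 3.42 to 4.50 CPM with TNF (log2 -0.77, SE 0.18, adjusted p = 0.00633). Reads where such genes overlap others, or lie antisense to them, are uncertain. These genes were named after their values were seen.

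Some of the largest fold changes lay in genes of low level, with a mean under 5 CPM over the 8 libraries, which the naming rule left out. Itgb8, an integrin subunit that activates TGF beta, had 0.532, 0.450, 0.409 and 0.654 CPM with vehicle and 9.38, 11.0, 3.09 and 3.25 CPM with TNF (log2 3.68, SE 0.33, adjusted p = 1.38e-06). Has1, a hyaluronan synthase, had 0, 0, 0.307 and 0.218 CPM and 0.978, 2.07, 1.59 and 1.46 CPM (log2 3.60, SE 0.53, adjusted p = 0.000145). Mmp2, a gelatinase, had 0.0483, 0.200, 0.153 and 0.582 CPM and 2.54, 4.08, 1.59 and 0.784 CPM (log2 3.31, SE 0.49, adjusted p = 0.000155). At these levels a vehicle library holds few counts, and fold changes depend on the counts added in the fit. They too were named after their values were seen.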
